A study of Mus musculus with 6 samples.

Results

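The Hox cluster genes are described here in CD24- and CD24+ cells of the mouse Mvt1 mammary carcinoma line. Members were all annotations made of Hox, a cluster letter from a to d and a paralogue number, which gives 39 genes in 4 clusters. Of these, 16 held at least 1 read and 10 had enough reads to be tested, among 14761 gene annotations and 11125 genes tested in all. The line comes from the FVB/N strain and its cells are labelled mammary epithelial cancer cells. Cells of this 1 line were stained for surface CD24 and sorted by flow cytometry into CD24- and CD24+ groups, which were grown in the same serum-supplemented medium without further treatment. Messenger RNA was sequenced from 3 plates of each group, and no independent sorts are described, so each p-value measures the spread between plates, and differences that arose between the sorted groups cannot be told apart from those tied to CD24.

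Hox genes encode transcription factors that bind DNA through a homeodomain and set position along the body axis of the embryo. In mammals they lie in clusters on separate chromosomes, and genes of the same number in different clusters are paralogues, copies of one ancestral gene. Low numbers lie at the 3′ end of a cluster and act toward the head, while high numbers lie at the 5′ end and act toward the tail. In the adult mammary gland several Hox genes remain transcribed, and Polycomb and Trithorax complexes, retinoic acid receptors and TALE cofactors are known regulators or partners of the family.

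The 6 libraries held between 9046025 and 25692147 mapped reads, and the CD24+ group held both the shallowest and the deepest. Levels are given as CPM, reads per 1000000 gene reads of the library, after TMM scaling. Cd24a, which encodes the sorted surface protein, stood at 12.1, 11.5 and 6.99 CPM in the CD24- libraries and at 73.4, 85.6 and 72.5 CPM in the CD24+ libraries (log2 fold change 2.91, SE 0.17, edgeR adjusted p = 5.39e-07). Of the luminal epithelial markers, Krt8 and Krt18 were abundant, but Epcam averaged 0.101 CPM (CD24-) and 0.0565 CPM (CD24+), Cdh1 0 and 0.0363 CPM, and Elf5 had no read. The summed level of the 8 luminal markers ran from 1953 to 2132 CPM in CD24- and from 835 to 967 CPM in CD24+ libraries, mostly Krt8 and Krt18, and of its 5 tested genes 4 fell, against 22.3% of all tested genes, and Esr1 rose (log2 fold change 1.25). That of the 6 leukocyte markers ran from 46.7 to 80.6 and from 7.18 to 9.44 CPM, mostly Cd68. Itgam, the other tested leukocyte marker, held 36, 47 and 29 reads in CD24- and 0, 0 and 1 in CD24+ libraries and was called lower, having passed the filter through the CD24- libraries alone, while Ptprc was at 0 in CD24- cells and Cd3e had no read. The summed level of the 9 fibroblast and mesenchymal markers ran from 3612 to 4468 and from 4284 to 5086 CPM, mostly Vim, and 6 of its 7 tested genes rose, against 23.8% of all tested genes, although Dcn, 1 of the 6, reached the filter's minimum in the CD24+ libraries alone. Basal markers ran from 0.316 to 1.04 and from 6.61 to 14.1 CPM, in CD24+ libraries mostly Acta2 (means of 0.551 and 8.01 CPM) and next Trp63 (0.0948 and 1.16 CPM), while Krt5, Krt14 and Krt17 were at or near 0 in both groups, and endothelial markers from 2.71 to 4.65 and from 0.786 to 2.05 CPM. The part of these differences in the Hox results was not tested.

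Transcription was confined, at this depth, almost entirely to HoxA and HoxB. HoxA gave 39.3% and HoxB 60.7% of the 5632 Hox reads, and paralogue numbers 1 to 5 gave 90.6%. HoxC gave 1 read of Hoxc6 and 1 of Hoxc13, both in CD24+ replicate 1, and none of the 9 HoxD genes had a read. The 23 members without a read were Hoxa9, Hoxa11, Hoxa13, Hoxb1, Hoxb6, Hoxb9, Hoxb13, Hoxc4, Hoxc5, Hoxc8 to Hoxc12 and the HoxD genes. A count of 0 over all libraries allows up to 0.0416 CPM, from 3 reads in 72046879 gene reads, and covers counting error only. In HoxA, 2 unannotated reads matched Hoxa9 transcripts and 2 matched Hoxa13, so these genes were at the edge of detection and not shown to be absent.

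**Figure D1:**
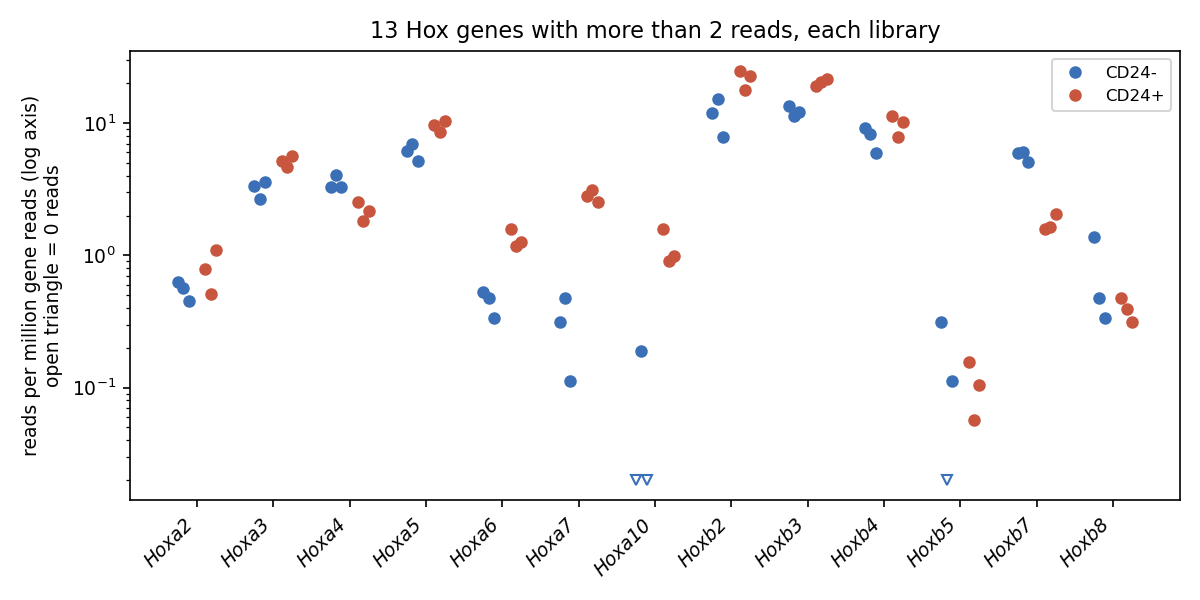
Level of 13 Hox genes with more than 2 reads, in CPM on a log axis, with 1 point per library (3 CD24-, 3 CD24+) and open triangles for libraries with 0 reads. Hoxa7 and Hoxa10 are higher in every CD24+ library and Hoxb7 lower, while the points of Hoxb4 overlap.

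Of the 10 tested members, 6 were higher in CD24+ cells (Hoxa3, Hoxa5, Hoxa6, Hoxa7, Hoxb2 and Hoxb3), 2 were lower (Hoxa4 and Hoxb7) and 2 did not pass the test, Hoxb4 among them. Among all tested genes 46.1% were called, 23.8% higher and 22.3% lower. Hoxa6 and Hoxa7 held at most 5 reads in any CD24- library, against filter minima of 9 to 11, and were tested through the CD24+ libraries alone. Of the 8 members that reached the minimum in both groups, 4 were higher and 2 lower, and the groups did not overlap for 6, against 57.3% of all tested genes. Their median log2 fold change was 0.47, and that of all tested genes 0.02. Summed over members, HoxA stood at 25.7 ± 2.83 CPM in CD24- and 34.7 ± 3.84 CPM in CD24+ cells, and HoxB at 38.4 ± 5.90 and 54.1 ± 5.23 CPM (SD, n = 3). The groups did not overlap for either cluster sum. In RNA from whole plates, fewer cells that transcribe a gene and less RNA per cell cannot be told apart.

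Genes toward the 3′ end of HoxA respond early to retinoic acid in embryos. Hoxa2, which patterns the second branchial arch, was not tested, with 16 reads in CD24- and 35 in CD24+ libraries (ratio of rates 1.47, exact counting interval 0.791 to 2.84). Hoxa3, which acts in thymus and parathyroid formation, stood at 3.37, 2.66 and 3.61 CPM in CD24- and 5.19, 4.69 and 5.66 CPM in CD24+ libraries, all of them above the CD24- range (log2 fold change 0.70, SE 0.21, edgeR adjusted p = 0.0205). The call was lost without CD24- replicate 1 (adjusted p = 0.0536), CD24- replicate 2 (0.0932) or CD24+ replicate 3 (0.0950), and also with DESeq2 (0.0554) and with reads that match 1 protein-coding gene (0.0638). Only 32.9% of its reads match its own GENCODE transcripts, and its annotated span encloses Hoxa4.

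Hoxa4 was lower in CD24+ cells. It stood at 3.26, 4.08 and 3.27 CPM in CD24- and 2.52, 1.81 and 2.15 CPM in CD24+ libraries, without overlap (log2 fold change -0.76, SE 0.24, edgeR adjusted p = 0.0238). This call was lost without CD24- replicate 1 (adjusted p = 0.0548), CD24- replicate 2 (0.112), CD24+ replicate 2 (0.0804) or CD24+ replicate 3 (0.0659). It was also lost with DESeq2 (0.0724), with each distinct sequence counted once (0.0938) and with the replicate block (0.0680), which makes 7 of 13 separate alternatives.

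Hoxa5, Hoxa6 and Hoxa7 were each called higher. Hoxa6 and Hoxa7 reached the filter's minimum in the CD24+ libraries alone, so only a rise could bring them into the test, and no order is read from the fold changes of the 3 genes. Hoxa5, studied in the breast as a regulator of epithelial differentiation, stood at 6.11, 6.92 and 5.19 CPM in CD24- and 9.60, 8.53 and 10.3 CPM in CD24+ libraries (log2 fold change 0.64, SE 0.17, edgeR adjusted p = 0.0125), a call lost without CD24+ replicate 3 (adjusted p = 0.0660). Hoxa6 stood at 0.526, 0.474 and 0.338 CPM and at 1.57, 1.19 and 1.26 CPM, the CD24+ libraries being higher throughout (log2 fold change 1.50, SE 0.37, edgeR adjusted p = 0.00713). Hoxa7, which patterns the trunk, held 3, 5 and 1 reads in CD24- and 18, 55 and 48 in CD24+ libraries, or 0.316, 0.474 and 0.113 against 2.83, 3.11 and 2.52 CPM. Its log2 fold change was 3.14 (SE 0.39, edgeR adjusted p = 1.04e-04). Hoxa10, known from uterine development, had reads in 1 of 3 CD24- libraries (0, 2 and 0) and in all CD24+ libraries (10, 16 and 19). It fell below the filter, and the ratio of its rates was 15.1 (exact counting interval 3.94 to 128).

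**Figure D2:**
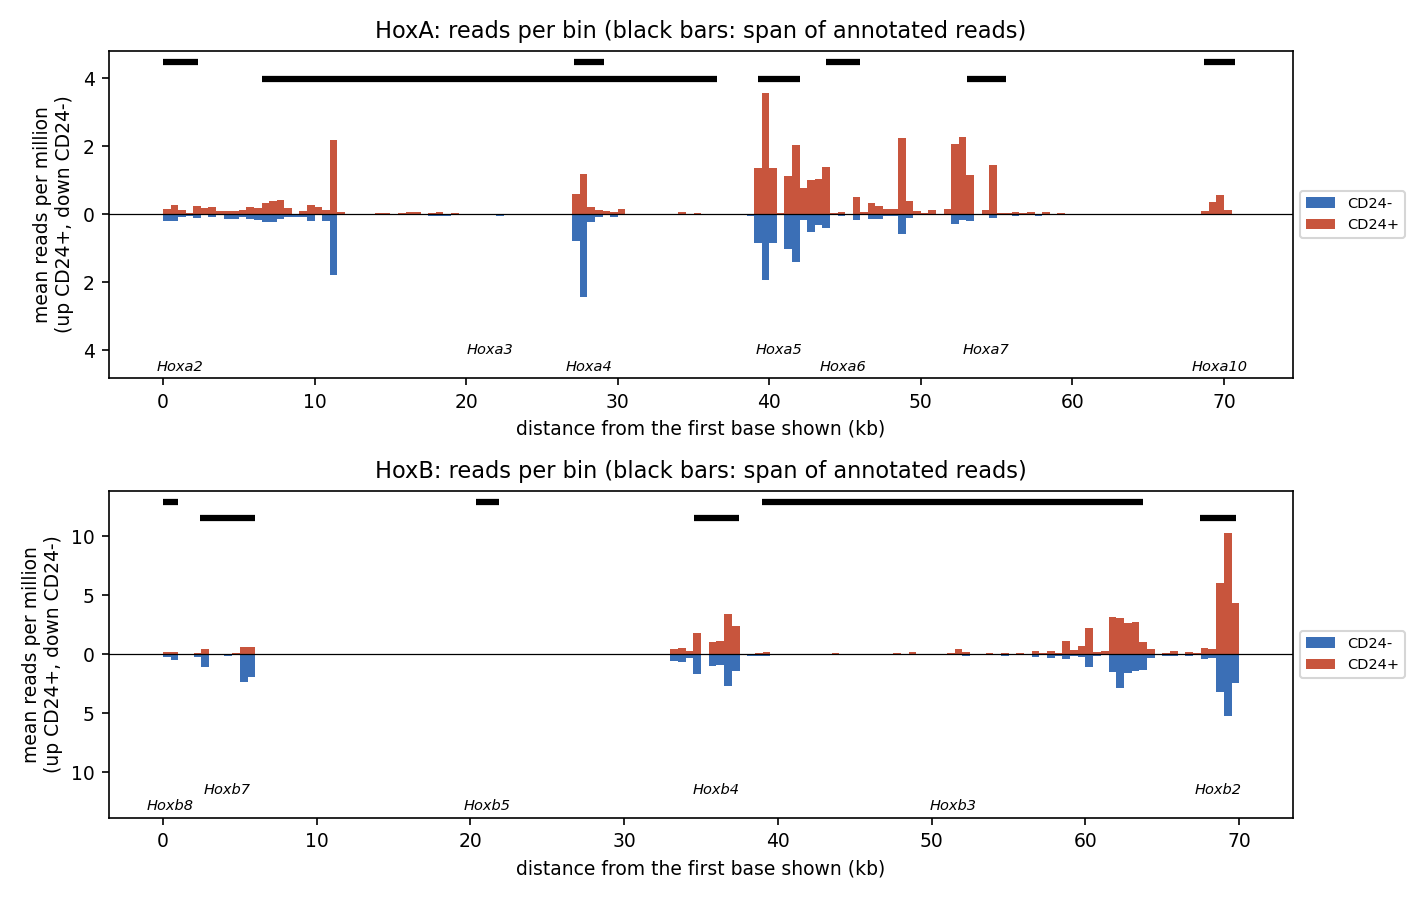
Reads of all kinds along HoxA (top) and HoxB (bottom) in bins of 500 bases, as mean CPM over the 3 libraries of a group, CD24+ upward and CD24- downward, against distance in kb from the first base shown. Black bars give the span of annotated reads, and the blocks from Hoxa5 to Hoxa7 are taller in CD24+ cells while the Hoxb7 block is taller in CD24- cells.

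Reads with no annotation lay between several HoxA genes and were summed per interval. Between Hoxa5 and Hoxa6 they stood at 1.05, 1.33 and 1.13 CPM in CD24- and 2.83, 3.73 and 3.51 CPM in CD24+ libraries (log2 fold change 1.54, SE 0.26, edgeR adjusted p = 7.35e-04), and none of these 185 reads matched a spliced GENCODE transcript. Between Hoxa6 and Hoxa7 they stood at 1.90, 1.33 and 1.47 CPM and at 8.50, 8.59 and 8.12 CPM (log2 fold change 2.42, SE 0.21, edgeR adjusted p = 8.07e-06), and of these 406 reads 96 matched Hoxa7 alone, 101 both Hoxa7 and the antisense RNA Hoxaas3, and 200 no transcript. The interval thus overlaps the Hoxa7 result in part. Its reads that matched no transcript numbered 30 in CD24- and 170 in CD24+ libraries, before scaling to depth (28689148 and 43357731 gene reads). Transcripts were searched without their introns. The GENCODE gene body of Hoxa3 encloses Hoxa5 and Hoxa6, so reads from its introns could not match. Both intervals separated the groups without overlap, as did 57.3% of all tested genes. Unannotated reads between Hoxa2 and Hoxa3 did not pass the test (log2 fold change 0.65, edgeR adjusted p = 0.197). Nor did those between Hoxb5 and Hoxb4 (-0.59, edgeR adjusted p = 0.110) or between Hoxb3 and Hoxb2 (0.16, edgeR adjusted p = 0.717). Hotairm1, a noncoding RNA of the 3′ end of the cluster, did not pass the test (log2 fold change 0.10, SE 0.22, edgeR adjusted p = 0.744).

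Of the HoxB genes, Hoxb2 and Hoxb3 rose, while Hoxb1 had no read and Hoxb4 did not pass the test. Hoxb2, which acts in hindbrain segments, stood at 12.0, 15.2 and 7.89 CPM in CD24- and 24.7, 17.7 and 22.5 CPM in CD24+ libraries (log2 fold change 0.86, SE 0.21, edgeR adjusted p = 0.00763). Hoxb3 stood at 13.5, 11.3 and 12.2 CPM and at 19.1, 20.5 and 21.7 CPM (log2 fold change 0.74, SE 0.12, edgeR adjusted p = 7.82e-04). For both, all CD24+ libraries were above all CD24- libraries. The counts carry no strand and both genes overlap the antisense Hoxb3os, so reads in the overlap (1011 of Hoxb2 and 705 of Hoxb3) cannot be assigned to 1 strand. Reads that match Hoxb2 alone numbered 24, 34 and 17 in CD24- and 26, 61 and 71 in CD24+ libraries, and those that match Hoxb3 alone 22, 38 and 18 and 30, 72 and 96, before scaling to depth. Hoxb4, known for its effect on blood stem cells, stood at 9.16, 8.34 and 5.98 CPM and at 11.3, 7.80 and 10.3 CPM, with overlapping groups (log2 fold change 0.30, SE 0.21, edgeR adjusted p = 0.262).

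Hoxb7, reported in breast cancer cells as a promoter of growth and invasion, moved the other way. It stood at 5.90, 6.07 and 5.07 CPM in CD24- and 1.57, 1.64 and 2.04 CPM in CD24+ libraries, without overlap (log2 fold change -1.66, SE 0.22, edgeR adjusted p = 1.52e-04). Its neighbour Hoxb8 was not tested, with 13, 5 and 3 reads in CD24- and 3, 7 and 6 in CD24+ libraries (ratio of rates 0.511, exact counting interval 0.249 to 1.03). Hoxb5 had 4 reads in each group.

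**Figure D3:**
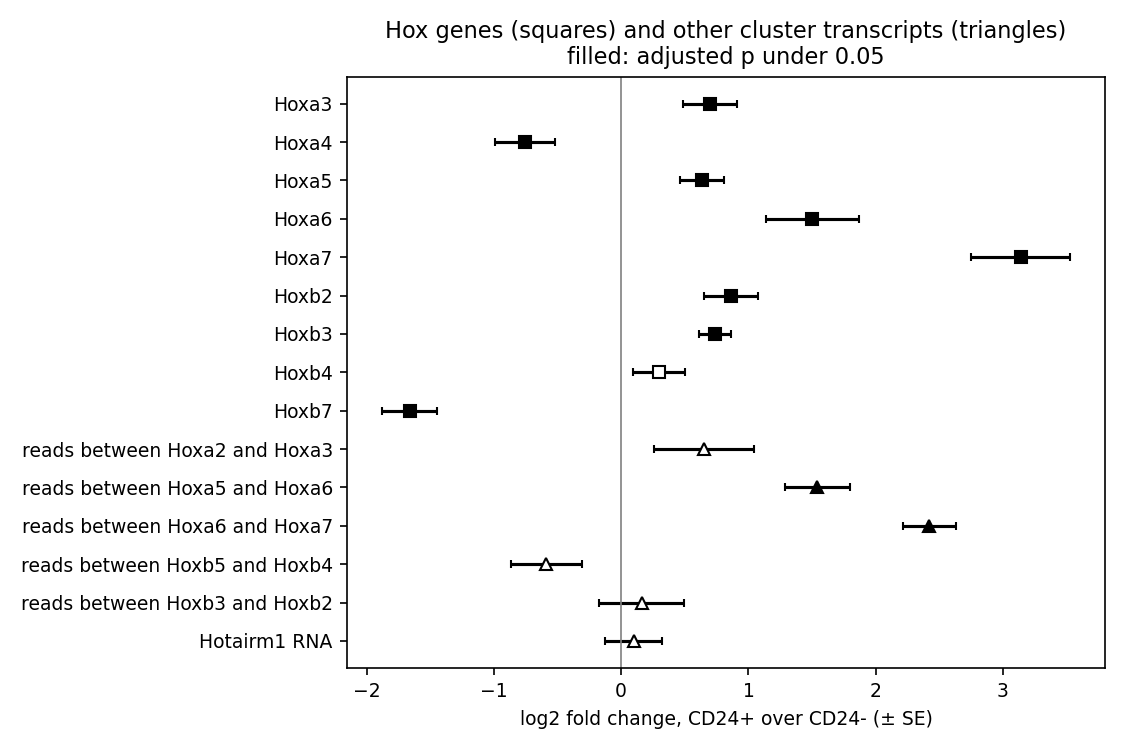
Log2 fold change, CD24+ over CD24-, with SE (3 libraries a group), for 9 of the 10 tested Hox genes (squares) and for unannotated reads and Hotairm1 in the clusters (triangles), filled where the adjusted p is under 0.05. Hoxa7 stands at 3.14 and Hoxb7 at -1.66, and Hoxa6 and Hoxa7 were tested through the CD24+ libraries alone.

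Shares within pairs of paralogues were compared library by library, as a description. Hoxa7 made up 5.08%, 7.25% and 2.17% of the reads of the pair Hoxa7 and Hoxb7 in CD24- libraries and 64.3%, 65.5% and 55.2% in CD24+ libraries. Their 95% Wilson intervals did not reach above 15.9% in CD24- or below 44.7% in CD24+ libraries, and this share does not depend on library scaling. These intervals cover counting error only, as reads are not independent molecules. The share restates the Hoxa7 and Hoxb7 differences given above and is no separate support. Hoxa7 was tested through the CD24+ libraries alone. Counted from reads that match 1 protein-coding gene, Hoxa7 had 320 reads over all libraries in place of 130, and its share was 11.7% to 12.7% in CD24- and 76.8% to 83.6% in CD24+ libraries. Of these 320 reads, 101 also match the antisense Hoxaas3 and cannot be assigned to a strand. Hoxa4 made up 26.3%, 32.8% and 35.4% of its pair with Hoxb4 in CD24- and 18.2%, 18.8% and 17.3% in CD24+ libraries. Some of its Wilson intervals overlap between groups, as 19.2% to 34.9% in CD24- replicate 1 and 11.5% to 27.5% in CD24+ replicate 1. Hoxa3 made up between 18.7% and 22.9% of its pair with Hoxb3 in all 6 libraries, and the groups overlap. Counted from reads that match 1 protein-coding gene, the Hoxa3 share was lower, at 3.81% to 11.6%, and the groups overlap there too.

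**Figure D4:**
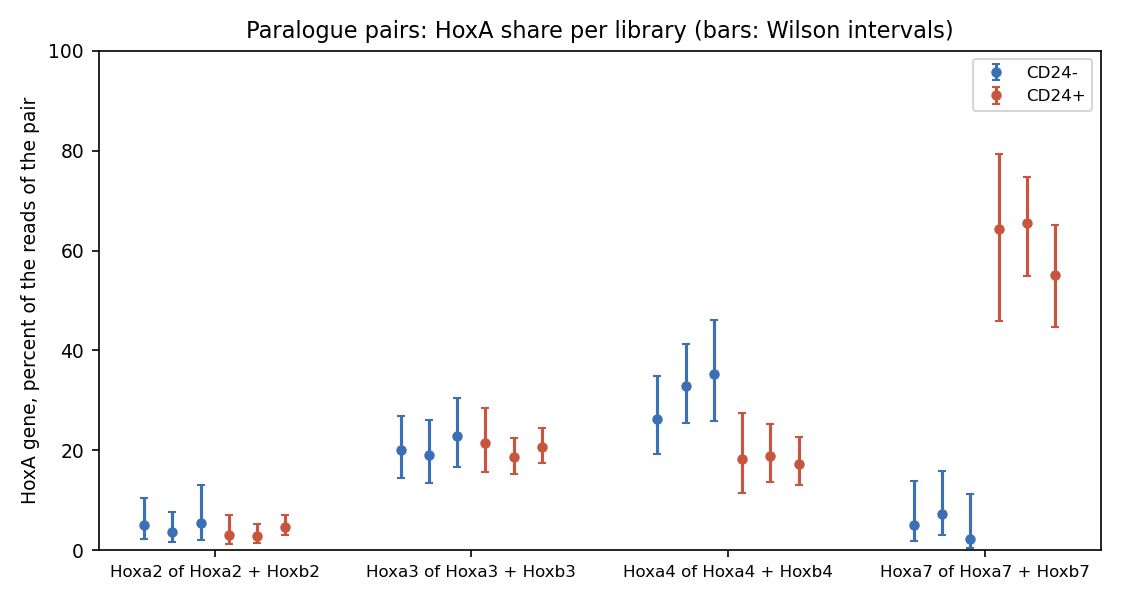
Share of the HoxA gene in the reads of each paralogue pair, in percent, with 1 point per library and bars for 95% Wilson intervals. The pair Hoxa7 and Hoxb7 separates the groups most, at 2.17% to 7.25% in CD24- and 55.2% to 65.5% in CD24+ libraries.

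Per kb of GENCODE M21 exon sequence, levels are given for each group in turn. These lengths are not those of the deposited annotation, which need not cover the same bases. The reads shared with the antisense Hoxb3os, 1011 of Hoxb2 and 705 of Hoxb3, are included. Among the members compared, Hoxb7 stood first in CD24- cells at 3.68 ± 0.344 CPM per kb, followed by Hoxb2 at 3.35 ± 1.05, Hoxa5 at 3.24 ± 0.462, Hoxb4 at 3.05 ± 0.644 and Hoxb3 at 2.90 ± 0.260 (SD, n = 3). From Hoxb7 to Hoxb3 neighbours in this order lie within their spread. In CD24+ cells Hoxb2 stood first at 6.21 ± 1.02 CPM per kb, followed by Hoxa5 at 5.05 ± 0.482 and Hoxb3 at 4.80 ± 0.312. Hoxb2 and Hoxa5, and Hoxa5 and Hoxb3, lie within their spread, and Hoxb7 stood at 1.14 ± 0.165.

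Promoter sequence of Hoxa5 and Hoxa7 is given because both were called higher and differ in composition. Hoxa6 lies between them. It comes from RefSeq (GRCm38.p6, minus strand, 300 bases around the transcription start), whose table held 22 of the 39 members. Capitals mark matches, on either strand, to the TATA box (TATAAA), a joint TALE and Hox motif (TGATNNAT), a MEIS motif (TGACAG), the nuclear receptor motif AGGTCA and a caudal-type motif (TTTATGGC).
Hoxa5: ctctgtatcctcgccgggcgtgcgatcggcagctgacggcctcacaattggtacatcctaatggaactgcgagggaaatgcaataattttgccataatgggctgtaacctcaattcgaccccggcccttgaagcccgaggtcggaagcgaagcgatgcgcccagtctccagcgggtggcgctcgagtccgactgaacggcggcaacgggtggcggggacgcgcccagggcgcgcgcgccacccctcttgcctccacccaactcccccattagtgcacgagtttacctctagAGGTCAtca
Hoxa7: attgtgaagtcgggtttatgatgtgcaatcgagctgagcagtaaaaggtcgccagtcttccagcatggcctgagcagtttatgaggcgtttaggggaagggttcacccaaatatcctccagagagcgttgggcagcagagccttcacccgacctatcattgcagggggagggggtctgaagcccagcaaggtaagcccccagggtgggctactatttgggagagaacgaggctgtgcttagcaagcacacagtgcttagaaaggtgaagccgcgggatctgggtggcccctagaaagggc
They lie at chr6:52204538-52204837 and chr6:52218524-52218823. The Hoxa5 window held 1 AGGTCA, a motif found in 16.3% of 32851 promoters. The Hoxa7 window held none of the motifs searched, and TATAAA, TGATNNAT and TGACAG, absent from both windows, are in 13.6%, 8.85% and 19.2% of promoters and TTTATGGC in 0.654%. The Hoxa6 window held none either. CpG dinucleotides numbered 29 for Hoxa5, 26 for Hoxa6 and 9 for Hoxa7, against a median of 7 over all promoters.

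Partners and regulators of Hox genes were read from lists written from general knowledge. Of 8 tested TALE cofactors, which bind DNA beside Hox proteins, 2 rose and 1 fell, or 37.5% called against 46.1% of all tested genes (23.8% higher, 22.3% lower). The same background holds for each list that follows. Pknox2, tested through its CD24+ libraries, rose from 0.211, 0.379 and 0.564 CPM to 9.92, 8.47 and 13.3 CPM (log2 fold change 4.77, SE 0.35), and Meis3 rose by 0.87 (SE 0.12) on the log2 scale. The other 5 did not pass, with log2 fold changes of -0.09 for Pbx2, 0.28 for Pbx3, -0.41 for Meis1, 0.27 for Meis2 and 0.18 for Pknox1.

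Of 12 tested PRC2 genes, whose complex methylates histone H3 at silent Hox genes, 2 rose and 5 fell, or 58.3% called against 46.1% of all tested genes (median log2 fold change -0.19). Ezh2, its catalytic subunit, fell by 0.54 (SE 0.10, edgeR adjusted p = 0.00118), the largest fall of the list, and Epop rose by 2.70 (SE 0.25). With DESeq2 8 of the 12 PRC2 genes were called, without TMM scaling 9 and with the replicate block 5. Under the block 4493 genes were called in all, in place of 5130. Of 21 tested PRC1 genes 5 rose and 4 fell (42.9% called, near the 46.1%), where Ring1 rose by 0.73 (SE 0.16) and Pcgf6 fell by 0.86 (SE 0.12). Of 15 tested Trithorax and demethylase genes, which counter Polycomb, 1 rose and 8 fell (60.0% called against 46.1%, with falls at 22.3% among all tested genes), where Ash2l rose by 0.41 (SE 0.08) and Rbbp5 fell by 0.80 (SE 0.08) on the log2 scale.

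Of 8 tested retinoic acid pathway genes 4 rose and 1 fell, or 62.5% called against 46.1%, and 1 of the 4 passed the filter through the CD24+ libraries alone. Cyp26b1, which degrades retinoic acid, fell by 1.24 (SE 0.25, edgeR adjusted p = 0.00219) on the log2 scale. Beside the clusters, 3 of 7 tested HoxA neighbours fell and none rose (42.9% called, near the 46.1% of all tested genes), and Snx10 fell by 1.18 (SE 0.17) on the log2 scale. Of the HoxB neighbours 2 of 6 rose and 1 fell (3 of 6 called, also near it), where Nfe2l1 rose by 0.52 (SE 0.10) and Cbx1 fell by 0.29 (SE 0.07). Of the HoxC neighbours 4 of 6 rose, Atp5g2 by 0.55 (SE 0.09), and of the HoxD neighbours 1 of 7, Nfe2l2 by 0.23 (SE 0.07). Of 8 Cdx, other ParaHox and Evx genes, relatives of the family, 2 had reads and 0 could be tested.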

How the data were processed

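Mvt1 mRNA was sequenced from 3 CD24- and 3 CD24+ plates with an unstranded kit. The authors trimmed reads to 47 bases, collapsed identical ones, mapped them by exact match (mm9 per the labels) and deposited the count of every sequence with 1 annotation each. Exact matching loses reads across exon junctions and over variants. Here the deposited counts were summed per gene symbol and tested with edgeR 4.0.16 in R 4.3.3 (filterByExpr, TMM scaling and the quasi-likelihood test). P-values of the 11125 genes were adjusted together by Benjamini-Hochberg at a threshold of 0.05, without the replicate number. The SE is the log2 fold change over the root of F. Alternatives used DESeq2 1.42.0 and limma 3.58.1. Libraries of a group differed by more than sampling noise. Chi-square was 1.75 times its degrees of freedom for CD24- replicates 1 and 2, and 9.69 to 15.9 times for every other pair. Exact and Wilson intervals cover counting error only, since reads carry no molecular identifiers. Reads were also matched to GENCODE M21 transcripts (GRCm38), whose coordinates were not mixed with mm9. All 39 members are counted. Of each list, the called genes with the largest rise and fall, and the tested TALE cofactors, are named, except for some items that are not reported here. The members and lists were chosen with earlier results of these data known. On simulated counts the test was checked before use.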

Additional observations from a re-analysis of the deposited data

Results flagged for a closer look

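Both results below come from reads that carry no gene annotation in the deposited files, and both are higher in CD24+ cells. The unannotated reads between Hoxa5 and Hoxa6 had a log2 fold change of 1.54, and none matched a spliced GENCODE transcript. That interval lies inside the GENCODE gene body of Hoxa3, whose intronic reads the search could not match. Those between Hoxa6 and Hoxa7 had one of 2.42, but 96 of the 406 matched Hoxa7 alone and 101 Hoxa7 and Hoxaas3, so this result overlaps the Hoxa7 difference already given. The 200 that matched no transcript numbered 30 in CD24- and 170 in CD24+ libraries, before scaling to depth (28689148 and 43357731 gene reads), and their source was not tested. With 3 libraries a group, single libraries were not examined for extreme values.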

How the results depend on the processing

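Alternatives were DESeq2, no TMM scaling, no filter on low counts, at least 1 CPM in 3 libraries, each distinct sequence once, limma on log2(CPM + 10), a replicate block and each library left out. Reads matching 1 protein-coding gene, in place of the annotation, were added after seeing the data. Of 130 values of single Hox genes under these alternatives, the 1 CPM filter left out, 117 kept their side of the threshold, 13 lost the call and 0 changed direction. The losses were all of Hoxa3, Hoxa4 and Hoxa5. With limma on log2(CPM + 10) the log2 fold changes were much smaller, at 0.315 for Hoxa7, 0.118 for Hoxa6 and -0.416 for Hoxb7. All of them stayed called, and the added 10 CPM lowers the fold change of any gene at such levels. The count of Hox genes lower in CD24+ fell from 2 to 1 with DESeq2, with each distinct sequence once and with the replicate block, Hoxa4 being the one lost (adjusted p = 0.0724, 0.0938 and 0.0680). Under the replicate block the count of higher genes was 6 and that of all genes 4493, and among HoxD neighbours 0 genes passed instead of 1. The replicate numbers showed no clear sign of pairing the plates (correlations of 0.0143, -0.251 and -0.310). With 3 libraries a group these values cannot exclude pairing, and the study states none. Hoxa3 lost its call with DESeq2 (log2 fold change 0.68, adjusted p = 0.0554) and with reads matching 1 protein-coding gene (1.01, SE 0.40, adjusted p = 0.0638), while Hoxa7 kept its call there at a log2 fold change of 3.20. Hoxa7 held 7, 9 and 6 reads in the CD24- libraries of that recount, each under its library's filter minimum. It was thus again tested through the CD24+ libraries alone. The recount of Hoxa7 includes 101 reads that also match the antisense Hoxaas3 and cannot be assigned to a strand. Leaving out 1 library gave 4 to 7 higher and 1 to 2 lower Hox genes, 4069 to 5358 genes in all, and log2 ratios of 0.35 to 0.52 for HoxA and 0.37 to 0.57 for HoxB. The 1 CPM filter came to the same minimum, 7 to 20 reads, in every library as the default filter, so it tested the same genes and is no separate check. Without a filter Hoxa10 was called (log2 fold change 3.78, SE 0.79, edgeR adjusted p = 8.57e-04). Depth limits Hox genes under about 1 CPM.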
